A study of Mus musculus with 6 samples.

Results

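Selective autophagy receptors are the proteins that pick out cargo for degradation, and 9 of their genes were examined in mouse left ventricle: *Sqstm1*, *Nbr1*, *Optn*, *Calcoco1*, *Tax1bp1*, *Bnip3*, *Bnip3l*, *Fundc1* and *Pink1*. They were chosen by symbol as cargo receptors, receptors for mitochondria, and the kinase PINK1, without reference to a threshold on any value. Earlier results of these data were known when they, and the gene lists used below, were chosen. All 9 were found among the 31273 gene rows of the expression table, and all 9 passed the filter for testing, a mean of at least 1 TPM, as did 12404 genes in all. TPM, the unit of the table, is a length-corrected share of the transcripts in a library.

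The study asked what RBM20, an RNA-binding splicing regulator of heart and skeletal muscle, does in dilated cardiomyopathy when it is not mutated, with autophagy among its readouts. Polyadenylated RNA of the left ventricle was sequenced in 6 libraries. The 3 control libraries carry the genotype label control and the prefix cki in their titles, and the 3 overexpression libraries carry the label for RBM20 overexpression restricted to cardiomyocytes and the prefix cre. Per the series' design text, the model is a knock-in of RBM20 in cardiomyocytes that tamoxifen switches on. The labels give no age, sex, tamoxifen dose or time, and do not say whether the control animals carried the Cre recombinase or received tamoxifen. Inducible recombinases of this kind are usually fused to part of the estrogen receptor, and transcripts assigned to *Esr1* ranged from 0.234 to 0.415 TPM in control libraries, while overexpression replicates 1 to 3 had 218, 53.0 and 199 TPM. Overexpression of RBM20, the recombinase and the drug can therefore not be told apart in this contrast.

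In selective autophagy a receptor binds its cargo with one surface and a lipidated ATG8 protein (LC3 or GABARAP) on the growing autophagosome with another. SQSTM1 (p62), NBR1, OPTN and TAX1BP1 bind ubiquitin chains on the cargo, whereas BNIP3, BNIP3L (NIX) and FUNDC1 are anchored in the outer mitochondrial membrane and bind ATG8 proteins directly. PINK1 accumulates on damaged mitochondria, and phosphorylates ubiquitin there, which draws in OPTN and related receptors. The heart depends on this turnover because cardiomyocytes are packed with mitochondria and rarely divide. A receptor transcript is not a measure of autophagic flux, since receptors are themselves degraded with their cargo.

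To show the regulatory sequence next to these genes, the 250 bases upstream of the annotated start are printed for the members with the highest and lowest differences (*Sqstm1*, *Tax1bp1*, *Optn*, *Pink1*) and for *Bnip3*, which carried the only E-box among the members' windows. The sequences are from RefSeq on GRCm38.p6, 5′ to 3′ on the gene's strand, with motif matches in capitals. The *Sqstm1* window is chr11:50210821-50211070 on the minus strand, that of *Tax1bp1* is chr6:52713915-52714164 on the plus strand (the second of its annotated starts), that of *Bnip3* is chr7:138909507-138909756 on the minus strand, that of *Optn* is chr2:5064118-5064367 on the minus strand, and that of *Pink1* is chr4:138326297-138326546 on the minus strand.
Sqstm1: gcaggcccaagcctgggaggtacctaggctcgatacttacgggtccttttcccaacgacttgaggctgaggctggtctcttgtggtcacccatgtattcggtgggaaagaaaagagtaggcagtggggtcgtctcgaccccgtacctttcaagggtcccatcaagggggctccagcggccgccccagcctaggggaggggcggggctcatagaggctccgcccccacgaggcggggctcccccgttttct
Tax1bp1: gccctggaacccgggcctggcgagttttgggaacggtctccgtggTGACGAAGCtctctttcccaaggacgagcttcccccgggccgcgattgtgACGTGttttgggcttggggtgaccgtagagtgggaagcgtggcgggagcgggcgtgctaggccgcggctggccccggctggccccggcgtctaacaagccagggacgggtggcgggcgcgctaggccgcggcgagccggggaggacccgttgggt
Bnip3: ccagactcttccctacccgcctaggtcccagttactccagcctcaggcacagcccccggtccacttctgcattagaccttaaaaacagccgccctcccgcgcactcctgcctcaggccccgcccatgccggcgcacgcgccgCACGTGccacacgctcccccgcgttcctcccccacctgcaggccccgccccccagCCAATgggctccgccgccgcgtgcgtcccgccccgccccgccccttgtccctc
Optn: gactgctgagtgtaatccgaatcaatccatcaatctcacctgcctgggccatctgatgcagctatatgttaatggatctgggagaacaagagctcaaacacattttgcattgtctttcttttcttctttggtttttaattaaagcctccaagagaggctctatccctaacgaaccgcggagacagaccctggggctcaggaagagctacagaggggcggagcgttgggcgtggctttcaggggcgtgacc
Pink1: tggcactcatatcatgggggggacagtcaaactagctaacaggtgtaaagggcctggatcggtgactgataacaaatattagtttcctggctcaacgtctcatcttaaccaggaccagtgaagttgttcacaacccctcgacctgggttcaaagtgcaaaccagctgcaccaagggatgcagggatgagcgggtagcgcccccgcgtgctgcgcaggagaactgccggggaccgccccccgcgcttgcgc
The letters searched on both strands were CACGTG (the E-box read by TFEB and other bHLH factors), ACGTG (the core of a hypoxia response element, which every CACGTG also contains), TGACNNNGC (an antioxidant response element) and CCAAT. Of 32851 windows of the same length in the table, 6.02% held CACGTG, 16.6% held ACGTG, 10.2% held TGACNNNGC and 33.8% held CCAAT. In the *Bnip3* window CACGTG began 108 bases and CCAAT 53 bases before the start. In the *Tax1bp1* window TGACGAAGC began 205 bases and ACGTG 155 bases before the start. The windows of *Sqstm1*, *Optn*, *Pink1*, *Calcoco1* and *Fundc1* held none of these letters, and the *Nbr1* windows held CCAAT and, in 1 of them, ACGTG. The other *Tax1bp1* window, chr6:52713479-52713728, held none, and it is the one that ends directly before the gene start given below. These matches describe the letters of a short window and not factor binding. No window of *Bnip3l* was used here. G and C made up 72.4% of the *Bnip3* window, the most among the members, and 70.8% of the printed *Tax1bp1* window. They made up 50% of the other *Tax1bp1* window and of the *Optn* window, the least among the members. The median over all windows was 52.4%.

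The transgene was visible in the libraries labelled for it. Control replicates 1 to 3 had 74.9, 90.9 and 79.5 TPM of *Rbm20* and overexpression replicates 1 to 3 had 321, 913 and 907 TPM, an 8.73-fold ratio of means (log2 difference 2.96, SE 0.355, adjusted p = 0.000182 with limma). The 3 overexpression values all lay above the controls (exact permutation p = 0.1, two-sided, as low as 3 against 3 can go). Overexpression replicate 1 stood apart: it had the lowest *Rbm20* of its group, 88.1 TPM of the Y-linked gene *Ddx3y* where all other libraries had 0, and 0.0172 TPM of *Xist* against 34.4 to 62.6 in the others. Going by *Ddx3y* and *Xist*, this library was male and the others were female, so sex was mixed only in the overexpression group. Without this library the TPM differences of *Nbr1*, *Tax1bp1*, *Bnip3*, *Bnip3l* and *Calcoco1* were 0.45, 1.07, 0.52, 0.07 and 0.02. Each of the 9 genes had the same call without it as with it, and the remaining differences are given with the genes.

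Scaling matters for every value that follows. Transcripts encoded by mitochondrial DNA made up 48.3% to 52.0% of the TPM in control libraries and 36.7% to 41% in overexpression libraries. Since the total is fixed, a smaller share of these leaves more TPM to the other genes. The median log2 difference over all tested genes was 0.55 in deposited TPM, 0.32 after removal of the mitochondrially encoded genes, and 0.01 after median-of-ratios scaling, which brings the typical gene of each library to a common level (called rescaled from here on). Differences are log2(TPM + 1) in overexpression minus control, which understates the change of low genes, and fold values are ratios of group means. Estimated depth was 41790000 to 90280000 counted reads per library, and the lowest member, *Fundc1*, still rested on an estimated 823 to 1771 reads per library.

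In deposited TPM 4 of the 9 genes were called higher in the overexpression group (*Sqstm1*, *Tax1bp1*, *Nbr1*, *Bnip3*) and 3 were called lower (*Optn*, *Pink1*, *Fundc1*), whereas *Calcoco1* and *Bnip3l* did not pass the test. Among all tested genes 59.0% were called higher and 9.09% lower. After rescaling, 2 of the 9 stayed higher (*Sqstm1*, *Tax1bp1*) and 5 were lower (*Optn*, *Pink1*, *Fundc1*, *Calcoco1*, *Bnip3l*), against 22.2% of all tested genes higher and 24.0% lower. The median difference of the 9 genes was 0.07 in deposited TPM and -0.54 after rescaling. The groups did not overlap for 7 of the 9 in deposited TPM and for 8 of the 9 after rescaling, where the shares of all tested genes were 72.5% and 57.0%. *Sqstm1* and *Tax1bp1* thus rose, and *Optn*, *Pink1* and *Fundc1* fell, under each of these scalings and also with the mitochondrially encoded genes removed.

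**Figure D1:**
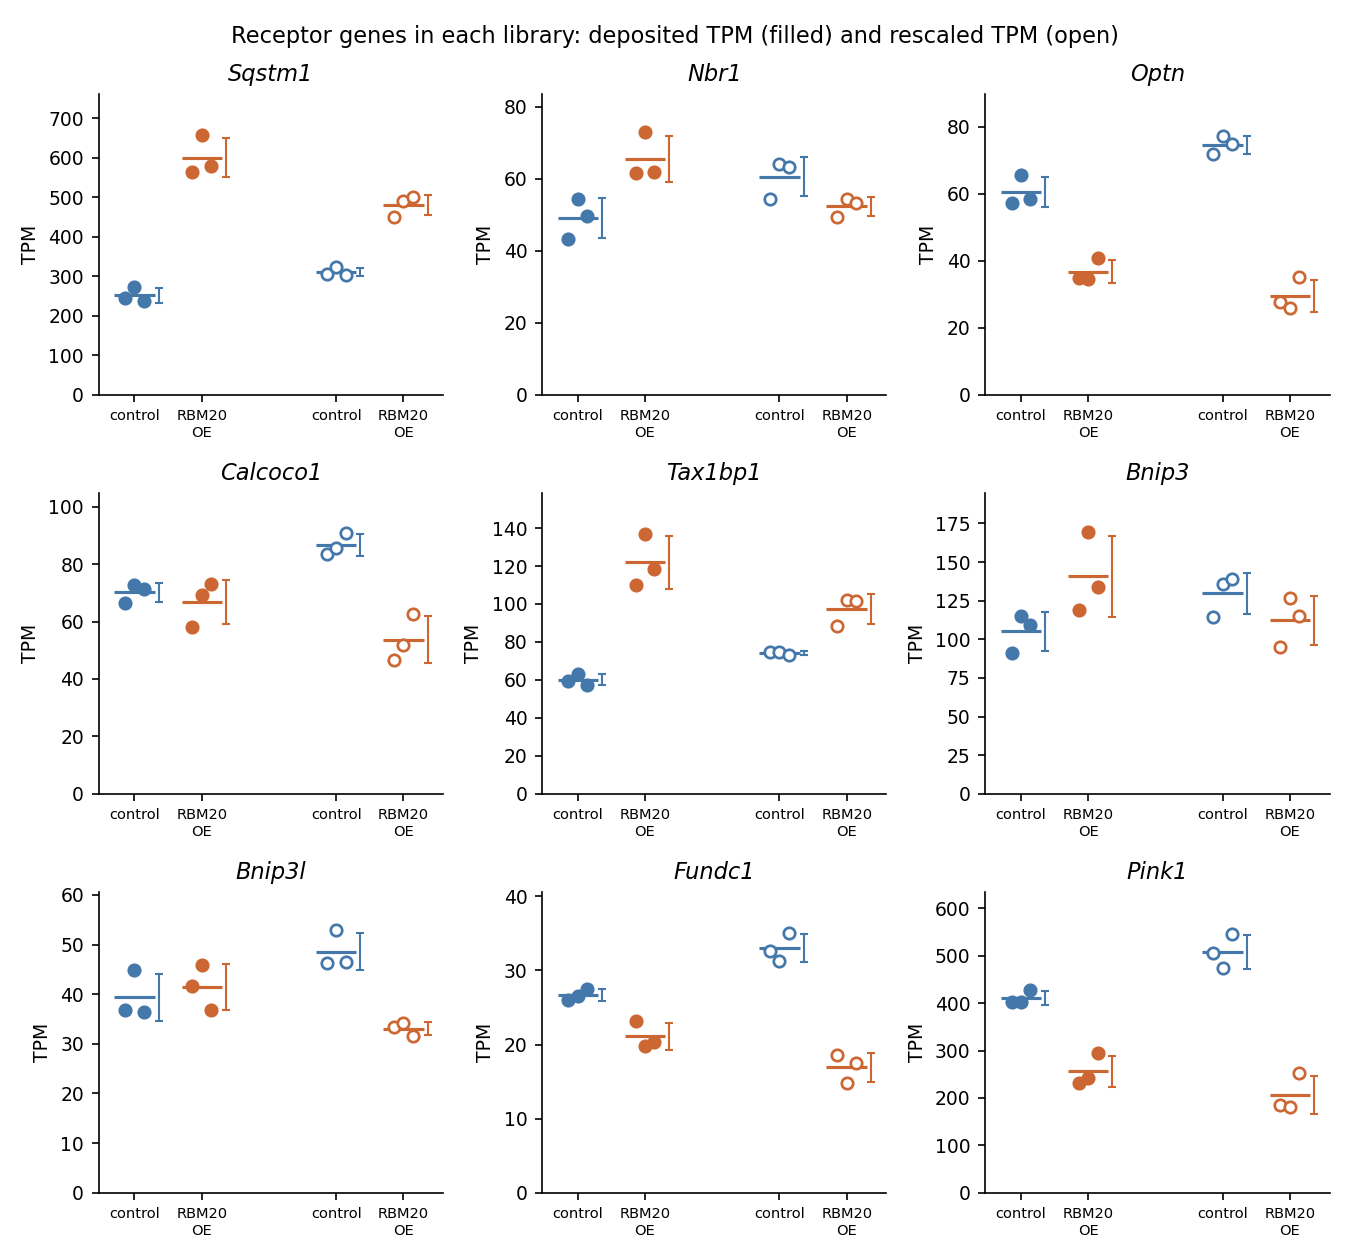
TPM of each receptor gene (vertical axis, from 0) in control (blue) and RBM20 overexpression (orange) libraries, as deposited (filled points) and rescaled (open points). Points are libraries, horizontal lines are group means and bars are SD (n = 3). *Sqstm1* sat at 237 to 274 TPM in control and 564 to 657 TPM in overexpression libraries, and *Nbr1* changes side between the scalings.

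*Sqstm1*, which encodes p62, the receptor that gathers ubiquitylated proteins into condensates and also holds KEAP1, the inhibitor of the transcription factor NRF2, rose the most of the 9. It lies at chr11:50199366-50210827 on the minus strand (GRCm38). Its level was 244, 274 and 237 TPM in control replicates 1 to 3 and 564, 657 and 581 TPM in overexpression replicates 1 to 3. Every overexpression library was above every control library. The means were 252 ± 19.8 and 600 ± 49.8 TPM (SD, n = 3 each), 2.38-fold higher. The log2 difference was 1.25 (SE 0.0958, 95% interval 1.03 to 1.47, limma adjusted p = 2.77e-05), above that of 88.8% of tested genes. After rescaling the libraries stood at 307, 323 and 303 against 451, 490 and 500 TPM, a log2 difference of 0.62 (95% interval 0.44 to 0.81, adjusted p = 0.000574). The rise was therefore present, at 1.54-fold, once the general upward shift of TPM was taken out. Without overexpression replicate 1 the difference in TPM was 1.29, and over all single libraries left out it ranged from 1.18 to 1.31. Reads of the opposite-strand gene *Mrnip*, whose exons overlap those of *Sqstm1*, may be shared with it, but *Mrnip* was at means of 0.745 and 1.18 TPM.

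*Nbr1*, the older relative of p62 that takes peroxisomes and protein aggregates to autophagosomes and binds the titin kinase domain in the sarcomere, is at chr11:101552149-101581951 on the plus strand. The control libraries had 43.3, 54.3 and 49.6 TPM and the overexpression libraries 61.7, 72.9 and 61.9 TPM. All overexpression values lay above the controls in these units, with means of 49.1 ± 5.56 and 65.5 ± 6.41 TPM (SD, n = 3 each) and a log2 difference of 0.41 (SE 0.118, 95% interval 0.14 to 0.68, adjusted p = 0.0134). That is less than the shift of the median gene. With mitochondrially encoded genes removed the difference was 0.13 (adjusted p = 0.347), and after rescaling it was -0.20 (95% interval -0.42 to 0.01, adjusted p = 0.113). The rescaled overexpression values all lay below the controls, replicate 2 only just so (54.37 against 54.43 TPM in control replicate 1). No direction can be given for *Nbr1* that holds under each scaling. Leaving out control replicate 1 made the rescaled difference -0.29 with an adjusted p of 0.0414, the only library whose removal brought it past the threshold.

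The ratio of *Sqstm1* to *Nbr1* within a library is not altered by dividing the library by a factor, as rescaling does. It was 5.64, 5.05 and 4.78 in control and 9.13, 9.02 and 9.39 in overexpression libraries. The values did not overlap, with means of 5.16 ± 0.439 and 9.18 ± 0.190 (SD, n = 3 each; exact two-sided permutation p = 0.1, the floor). The log2 difference in the ratio of these related receptors, whose proteins bind each other through their PB1 domains, was 0.84.

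*Optn* encodes optineurin, a receptor that TBK1 phosphorylates and that acts downstream of PINK1 on damaged mitochondria. The gene is at chr2:5020642-5064051 on the minus strand. Its level was 57.2, 65.5 and 58.5 TPM in control libraries and 34.7, 34.7 and 40.7 TPM in overexpression libraries. The groups did not overlap, and each overexpression library was below the lowest control. Means were 60.4 ± 4.47 and 36.7 ± 3.46 TPM (SD, n = 3 each), so control was 1.65-fold higher. The log2 difference was -0.71 (SE 0.107, 95% interval -0.95 to -0.46, adjusted p = 0.000573), lower than in all but 5.06% of tested genes. After rescaling it was -1.32 (95% interval -1.59 to -1.04, adjusted p = 0.000101), a 2.52-fold higher level in control. Without overexpression replicate 1 the difference in TPM was -0.67. The overlapping opposite-strand gene *4930551O13Rik* was at means of 0.638 and 0.361 TPM.

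*Tax1bp1*, a ubiquitin-binding receptor that also limits inflammatory signalling through the A20 complex, lies at chr6:52713729-52766780 on the plus strand. Control libraries had 59.6, 63.2 and 57.4 TPM, and overexpression libraries 110, 137 and 118 TPM. No overexpression value came near a control value. The means were 60.1 ± 2.95 and 122 ± 13.8 TPM (SD, n = 3 each), 2.03-fold higher, with a log2 difference of 1.00 (SE 0.104, 95% interval 0.77 to 1.24, adjusted p = 9.69e-05). The rescaled difference was 0.38 (95% interval 0.19 to 0.58, adjusted p = 0.00789), or 1.31-fold. Leaving out any single library gave 0.92 to 1.07 in TPM and 0.35 to 0.46 after rescaling, past the threshold each time.

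*Calcoco1*, a paralogue of *Tax1bp1* that serves as a receptor for the endoplasmic reticulum and Golgi, is at chr15:102706777-102722178 on the minus strand. The control libraries had 66.5, 72.7 and 71.3 TPM and the overexpression libraries 58.2, 69.3 and 72.9 TPM. The ranges overlapped, and the log2 difference was -0.07 (95% interval -0.32 to 0.17, adjusted p = 0.552; exact permutation p = 0.7). With the mitochondrially encoded genes removed it was -0.36 (adjusted p = 0.0290), and after rescaling -0.69 (95% interval -0.96 to -0.42, adjusted p = 0.00202). The ratio of *Calcoco1* to *Tax1bp1* was 1.12, 1.15 and 1.24 in control and 0.528, 0.506 and 0.616 in overexpression libraries. *Calcoco1* was the more abundant per length in every control library and the less abundant in every overexpression library, with mean ratios of 1.17 ± 0.0652 and 0.550 ± 0.0585 (SD, n = 3 each; exact permutation p = 0.1).

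The receptors anchored in mitochondria showed no common rise. *Bnip3*, a BH3-domain protein that hypoxia induces, is at chr7:138890836-138909519 on the minus strand and was at 91.1, 115 and 109 TPM in control and 119, 169 and 134 TPM in overexpression libraries. The overexpression values were above the controls, with replicate 1 only just so, and means were 105 ± 12.5 and 141 ± 26 TPM (SD, n = 3 each). The log2 difference of 0.41 (SE 0.145, 95% interval 0.08 to 0.74, adjusted p = 0.0334) was smaller than the shift of the median gene. After rescaling the ranges overlapped and the difference was -0.21 (95% interval -0.51 to 0.08, adjusted p = 0.208). In TPM the adjusted p rose to 0.105 without control replicate 1, 0.0621 without control replicate 3, 0.106 without overexpression replicate 2 and 0.0542 without overexpression replicate 3. The call for *Bnip3* in deposited TPM therefore hung on single libraries.

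*Bnip3l*, whose product NIX clears mitochondria from maturing red cells and also acts in the heart, is at chr14:66985239-67008877 on the minus strand. The values were 36.8, 44.9 and 36.4 TPM in control and 41.6, 45.9 and 36.8 TPM in overexpression libraries. These ranges overlapped almost entirely, with a log2 difference of 0.07 (95% interval -0.21 to 0.36, adjusted p = 0.617; exact permutation p = 0.6). With mitochondrially encoded genes removed the difference was -0.21 (adjusted p = 0.139). The rescaled values were 46.3, 52.9 and 46.4 against 33.3, 34.2 and 31.6 TPM, without overlap, and the difference was -0.54 (95% interval -0.75 to -0.33, adjusted p = 0.00202). A pseudogene named for *Bnip3l* is annotated, and how its reads were counted is not given in the sources used here. Of 9 erythroid markers, listed because this receptor is known to act in red cells, 5 were tested and 0 called under either scaling. The summed level of the 8 in the table was 777 to 1175 TPM in control and 742 to 1809 TPM in overexpression libraries.

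*Bnip3* and *Bnip3l* are paralogues, and their ratio was 2.47, 2.57 and 3.0 in control and 2.85, 3.69 and 3.64 in overexpression libraries. Overexpression replicate 1 fell inside the control range. Mean ratios were 2.68 ± 0.281 and 3.4 ± 0.472 (SD, n = 3 each), and an exact permutation test gave p = 0.2.

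*Fundc1*, whose product is switched by phosphorylation near its LC3-binding motif, is X-linked, at chrX:17556564-17572325 on the minus strand. It was the lowest of the 9 genes in both groups, at 26, 26.6 and 27.5 TPM in control and 23.2, 19.8 and 20.4 TPM in overexpression libraries. The groups did not overlap, and the highest overexpression value was that of replicate 1, the library low in *Xist*. Means were 26.7 ± 0.765 and 21.1 ± 1.79 TPM (SD, n = 3 each), a log2 difference of -0.33 (SE 0.107, 95% interval -0.57 to -0.08, adjusted p = 0.0236). Without overexpression replicate 1 it was -0.39 (adjusted p = 0.0159). The adjusted p in TPM was 0.0642 without control replicate 2, 0.0830 without control replicate 3, 0.0615 without overexpression replicate 2 and 0.0539 without overexpression replicate 3, all with the same direction. After rescaling the difference was -0.93 (95% interval -1.18 to -0.67, adjusted p = 0.000371), and it passed the threshold without any 1 library.

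The paralogue *Fundc2*, also a protein of the outer mitochondrial membrane, fell from 133 ± 2.54 to 87.1 ± 6.52 TPM (SD, n = 3 each; log2 difference -0.61, adjusted p = 0.000442). The ratio of *Fundc1* to *Fundc2* was 0.192, 0.204 and 0.205 in control and 0.269, 0.244 and 0.216 in overexpression libraries. Its values did not overlap, with means of 0.200 ± 0.00710 and 0.243 ± 0.0265 (SD, n = 3 each; exact permutation p = 0.1), a log2 difference of 0.28 in the ratio.

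*Pink1*, the kinase that marks mitochondria whose import has failed, was the most abundant of the 9 transcripts in control ventricle. The gene is at chr4:138313409-138326307 on the minus strand. The control libraries had 402, 402 and 428 TPM and the overexpression libraries 231, 243 and 294 TPM. Every overexpression library was well below the controls, and replicate 3 was the highest of them. Means were 410 ± 14.9 and 256 ± 33.2 TPM (SD, n = 3 each), 1.60-fold higher in control. The log2 difference was -0.69 (SE 0.104, 95% interval -0.92 to -0.45, adjusted p = 0.000558), lower than in all but 5.28% of tested genes. After rescaling it was -1.31 (95% interval -1.63 to -0.99, adjusted p = 0.000199), 2.46-fold higher in control. Without overexpression replicate 1 the TPM difference was -0.62.

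**Figure D2:**
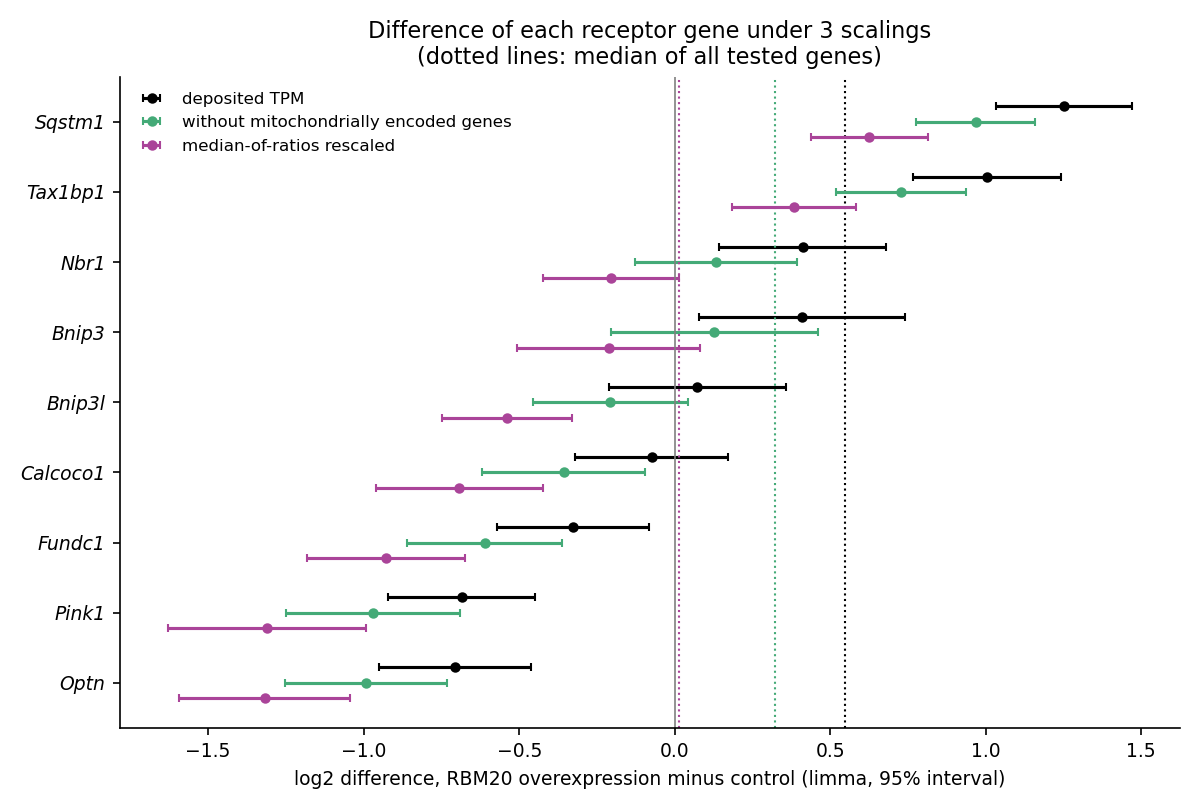
Log2 difference of each receptor gene, overexpression minus control (horizontal axis), with 95% intervals from limma, under deposited TPM (black), without mitochondrially encoded genes (green) and rescaled (purple). Dotted lines mark the median of all tested genes under each scaling (0.55, 0.32 and 0.01). *Sqstm1* and *Tax1bp1* lie to the right of 0, and *Optn*, *Pink1* and *Fundc1* to the left, under all 3.

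The order of the levels changed with genotype. In control ventricle it ran *Pink1*, *Sqstm1*, *Bnip3*, *Calcoco1*, *Optn*, *Tax1bp1*, *Nbr1*, *Bnip3l*, *Fundc1* by mean TPM, in which the ranges of *Optn* and *Tax1bp1*, and of *Nbr1* and *Bnip3l*, overlapped. In the overexpression group it ran *Sqstm1*, *Pink1*, *Bnip3*, *Tax1bp1*, *Calcoco1*, *Nbr1*, *Bnip3l*, *Optn*, *Fundc1*. The neighbours *Bnip3* and *Tax1bp1*, *Calcoco1* and *Nbr1*, and *Bnip3l* and *Optn* overlapped there. *Pink1* exceeded *Sqstm1* in 3 of 3 control libraries, and *Sqstm1* exceeded *Pink1* in 3 of 3 overexpression libraries.

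Shares of the summed TPM of the 9 genes, which dividing a library by a factor does not alter, were compared next. The sum itself was 1073 ± 46.3 TPM over control and 1351 ± 103 TPM over overexpression libraries (SD, n = 3 each). *Sqstm1* took 23.5% ± 1.26 of it in control (22.1% to 24.5%) and 44.5% ± 1.51 in overexpression libraries (42.7% to 45.3%). *Pink1* took 38.3% ± 2.06 (35.9% to 39.8%) and 19.0% ± 2.45 (16.8% to 21.6%), and the largest share was that of *Pink1* in each control library and that of *Sqstm1* in each overexpression library. The share of *Tax1bp1* was 5.60% ± 0.238 in control and 9.01% ± 0.399 in overexpression libraries, whereas that of *Optn* was 5.63% ± 0.209 and 2.73% ± 0.306. The ranges of these 4 genes did not overlap between groups, and neither did those of *Calcoco1* (6.54% ± 0.0832 and 4.94% ± 0.367), *Bnip3l* (3.66% ± 0.319 and 3.07% ± 0.331) or *Fundc1* (2.49% ± 0.10 and 1.58% ± 0.257). *Nbr1* (4.56% ± 0.324 and 4.85% ± 0.260) and *Bnip3* (9.77% ± 0.781 and 10.4% ± 1.16) overlapped. A share can fall because another gene's TPM rises, so these values show unequal change and not the direction of any single gene. The distance between the differences of *Sqstm1* and *Optn* was 1.96 in deposited TPM and 1.94 after rescaling.

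**Figure D3:**
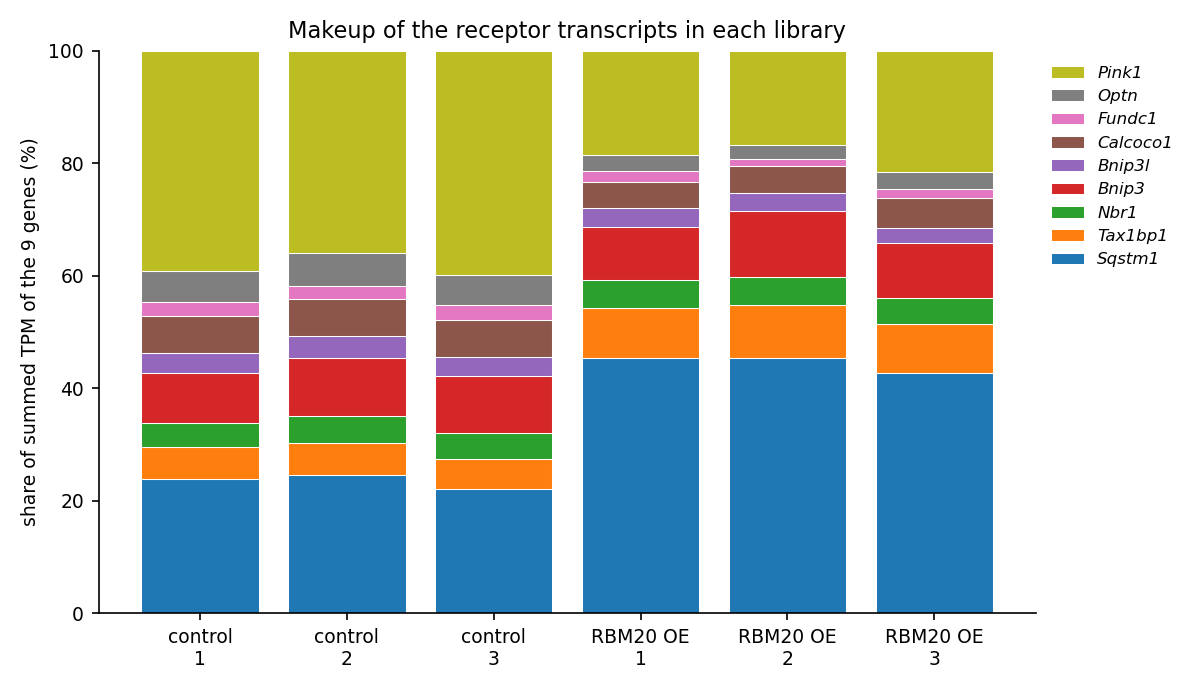
Share of the summed TPM of the 9 receptor genes (vertical axis, %) held by each gene in each of the 6 libraries, stacked to 100%. *Sqstm1* holds 22.1% to 24.5% in control and 42.7% to 45.3% in RBM20 overexpression (OE) libraries, and *Pink1* holds 35.9% to 39.8% and 16.8% to 21.6%.

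The other genes of the pathway were taken from 4 lists of partner genes, of whose 76 names 67 were tested. In deposited TPM 43 of the 67 were called higher and 9 lower, with a median difference of 0.53. After rescaling 13 were higher and 25 lower, with a median of -0.08, beside 0.01 over all tested genes. These counts, and those of the lists that follow, stand beside 59.0% higher and 9.09% lower among all tested genes in TPM, and 22.2% and 24.0% after rescaling.

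Among 19 other receptors tested, 12 were higher and 4 lower in TPM, and 5 were higher and 9 lower after rescaling (medians 0.40 and -0.16). *Stbd1*, whose product brings glycogen to autophagosomes, rose most, from 8.99 ± 0.864 to 48.1 ± 9.13 TPM (SD, n = 3 each), 5.35-fold (rescaled log2 difference 1.69, adjusted p = 9.69e-05). *Nufip1*, described as a receptor for ribosomes, rose from 2.20 ± 0.335 to 6.48 ± 0.745 TPM. On the other side *Retreg1*, a receptor that bends and fragments endoplasmic reticulum, had 392, 300 and 331 TPM in control and 103, 105 and 148 TPM in overexpression libraries. The groups were far apart for *Retreg1*, with a log2 difference of -1.53 in TPM and -2.15 after rescaling (adjusted p = 9.05e-05 and 0.000107). *Nipsnap2*, which marks damaged mitochondria for receptors, fell from 773 ± 4.54 to 498 ± 55.2 TPM.

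The 5 ATG8-family genes, the anchors that every receptor binds, gave 2 higher and 0 lower calls in TPM and 0 higher and 3 lower after rescaling (medians 0.05 and -0.57). The pair with the largest rescaled decreases was *Gabarapl2* (66.9 ± 2.20 and 63.7 ± 10.8 TPM, rescaled log2 difference -0.70, adjusted p = 0.00336) and *Map1lc3b* (99.6 ± 2.11 and 95.8 ± 13.4 TPM, rescaled log2 difference -0.69, adjusted p = 0.00142). Neither was called in deposited TPM (adjusted p = 0.567 and 0.622). None of the 5 had a positive rescaled difference, and the calls in this family depended on scaling. *Gabarapl2* and *Map1lc3b* were also slightly negative in deposited TPM (log2 differences -0.08 and -0.06).

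Partners of PINK1 numbered 24, of which 16 were higher and 4 lower in TPM, and 3 higher and 8 lower after rescaling (medians 0.54 and -0.02). *Vcp*, the ATPase that pulls ubiquitylated proteins off membranes, rose from 169 ± 4.37 to 377 ± 16.4 TPM (rescaled log2 difference 0.52, adjusted p = 0.00149). *Ubb*, a polyubiquitin gene whose repeats resemble those of other ubiquitin genes and whose reads are therefore uncertain, rose from 362 ± 22.8 to 719 ± 76.1 TPM. *Rhot2*, a mitochondrial transport GTPase that the PINK1 pathway acts on, fell from 62.7 ± 4.12 to 20.5 ± 3.14 TPM (log2 difference -1.58, adjusted p = 3.27e-05).

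Kinases and scaffolds of the receptors numbered 19, with 13 higher and 1 lower in TPM and 5 higher and 5 lower after rescaling (medians 0.55 and -0.06). *Tnip1*, a ubiquitin-binding partner of A20 like TAX1BP1, rose from 12.8 ± 1.1 to 41 ± 3.69 TPM, 3.20-fold (rescaled log2 difference 1.0, adjusted p = 0.000190). *Prkci*, an atypical protein kinase C that binds the PB1 domain of p62, rose from 7.24 ± 0.671 to 20.6 ± 3.04 TPM, 2.84-fold. *Ulk2*, a kinase that starts autophagosome formation, fell from 25.8 ± 1.91 to 20.3 ± 2.63 TPM (log2 difference -0.34, adjusted p = 0.0392). *Map2k5*, another PB1-domain kinase, was at 12.0 ± 0.595 and 10.7 ± 0.782 TPM and was called only after rescaling (log2 difference -0.72, adjusted p = 0.00315).

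*Sqstm1* is a known target of NRF2, and the 20 tested genes of a list of NRF2 and its targets were set beside it. Of these, 17 were higher and 0 lower in TPM, and 10 were higher and 3 lower after rescaling, with medians of 1.03 and 0.46, beside 59.0% and 9.09% of all tested genes in TPM and 22.2% and 24.0% after rescaling. The medians over all tested genes were 0.55 and 0.01. Whether NRF2 had a part in the rise of *Sqstm1* was not tested. *Gclm*, a subunit of the enzyme that limits glutathione synthesis, rose from 8.53 ± 0.643 to 33.5 ± 5.74 TPM, 3.93-fold. *Txnrd1*, thioredoxin reductase, rose from 30.3 ± 0.757 to 105 ± 15.8 TPM, 3.46-fold. The glutathione transferases *Gstm1* and *Gsta4*, members of families with similar copies, were at 228 ± 5.57 and 227 ± 24.2 TPM and at 116 ± 2.39 and 123 ± 11.6 TPM. They passed the test only after rescaling, as lower (log2 differences -0.64 and -0.55, adjusted p = 0.00386 and 0.00792).

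*Bnip3* is a known hypoxia-induced gene. Of 20 tested genes on a hypoxia list, 11 were higher and 1 lower in TPM, and 4 were higher and 7 lower after rescaling (medians 0.61 and 0.04). Of the 20, *Car9*, named here after its values were seen and counted as higher under both scalings, reached the filter only through the overexpression group (means of 0.322 and 2.03 TPM). The glucose transporter *Slc2a1* rose from 6.96 ± 1.06 to 25.0 ± 6.55 TPM and the prolyl hydroxylase *P4ha1* from 17.6 ± 5.82 to 53.7 ± 11.4 TPM, both also after rescaling (log2 differences 1.10 and 0.98). *Egln1*, which hydroxylates the HIF subunits and so marks them for degradation, fell from 185 ± 14.6 to 125 ± 5.53 TPM. *Epas1*, which encodes such a subunit, was at 144 ± 4.66 and 128 ± 4.55 TPM and was called lower only after rescaling (log2 difference -0.79, adjusted p = 0.000196).

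BNIP3, BNIP3L and FUNDC1 sit in the outer mitochondrial membrane, so 20 other genes of that membrane were counted. In TPM 6 were higher and 6 lower, and after rescaling 1 was higher and 15 were lower (medians 0.19 and -0.43). *Tomm70a*, an import receptor, rose from 31.1 ± 3.97 to 66.3 ± 12.7 TPM (rescaled log2 difference 0.45, adjusted p = 0.0157). *Samm50*, of the sorting machinery, fell from 70.8 ± 3.76 to 44.2 ± 2.18 TPM, and *Tomm5*, a small import subunit, fell from 153 ± 7.86 to 101 ± 7.03 TPM.

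**Figure D4:**
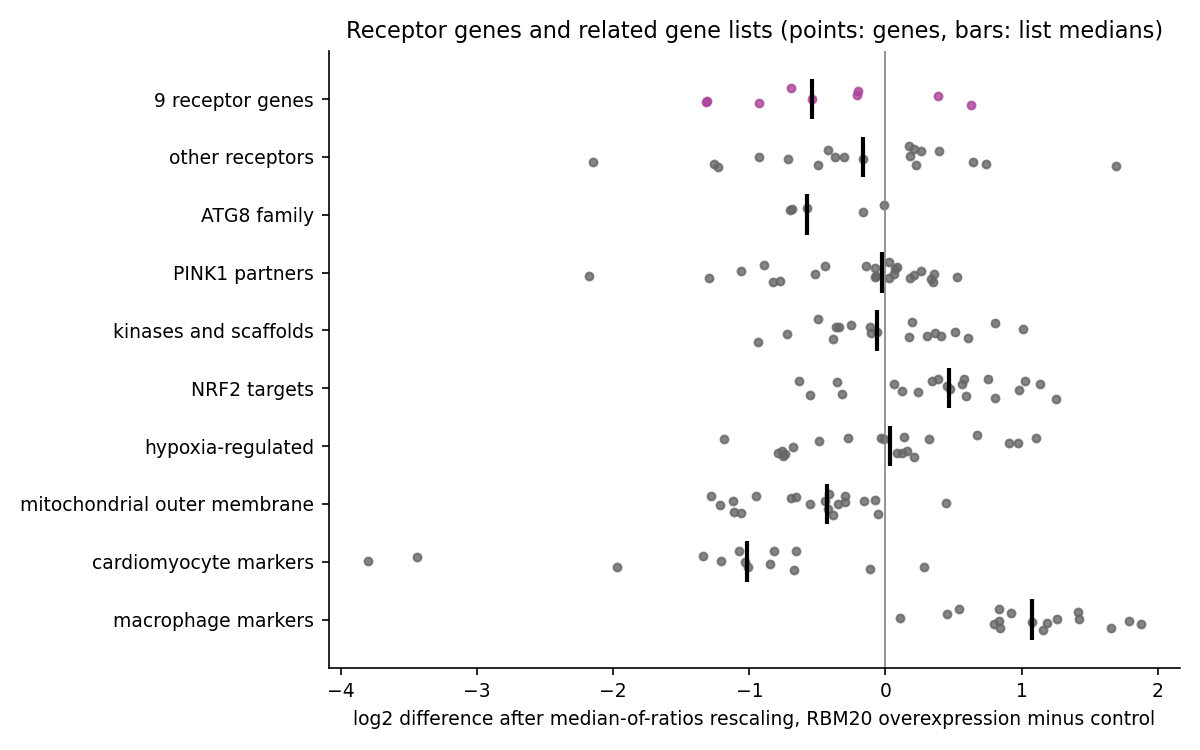
Rescaled log2 difference, overexpression minus control (horizontal axis), of each tested gene (points) in the 9 receptor genes, the related lists and 2 marker lists, with the median of each list as a black bar. The receptor genes run from -1.32 (*Optn*) to 0.62 (*Sqstm1*) around a median of -0.54, and the medians of the cardiomyocyte and macrophage markers are -1.02 and 1.07.

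Marker transcripts of some cell types, though not of every list, differed between the groups. In bulk libraries such as these, fewer cells of a type and less RNA per cell cannot be told apart. Of 18 macrophage markers 17 were tested, and 16 of these also averaged 1 TPM or more over the control libraries alone. The 17 were called higher in TPM and 15 of them after rescaling (median rescaled difference 1.07), and their summed level was 404 to 534 TPM in control and 902 to 1606 TPM in overexpression libraries. Of 14 cardiomyocyte markers, 2 were higher and 8 lower in TPM and 0 higher and 12 lower after rescaling (median -1.02). They summed to 54671 to 61346 TPM in control and 49286 to 54674 TPM in overexpression libraries. The rescaled cardiomyocyte sums did not overlap, at 69814.5 to 77167.8 (control) and 36769.5 to 47058.2 (overexpression) TPM. The fibroblast markers, 12 in all, gave 9 higher and 1 lower call in TPM and 6 higher and 3 lower after rescaling, and summed to 1376 to 1834 and 2454 to 3051 TPM. After rescaling these fibroblast sums overlapped, at 1757 to 2308 (control) and 2025 to 2276 (overexpression) TPM, whereas the macrophage sums did not, at 516 to 672 and 777 to 1286. Endothelial markers, also 12, gave 2 higher calls in TPM and 4 lower calls after rescaling. Of 12 lymphocyte and neutrophil markers 3 reached the filter, 2 of them also over the control libraries alone, and no lymphocyte marker was among them. The 3 were called higher in TPM and 0 were called after rescaling, and each was highest in overexpression replicate 1. The 12 together summed to 6.14 to 7.37 TPM in control and 13.0 to 34.5 TPM in overexpression libraries. Markers that defined cardiomyocytes were thus abundant in all 6 libraries, and no list was at 0. The part of these shifts in the rise of *Sqstm1* and *Tax1bp1*, which many cell types express, and in the fall of *Optn*, *Pink1* and *Fundc1* was not tested.

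The genes whose rescaled levels lay nearest to those of *Sqstm1* and *Optn* over the 6 libraries, by Euclidean distance of log2 values centred on the control mean, were sought among 6636 genes that averaged 10 TPM or more. For *Sqstm1* these were *Ppp1r12a*, a subunit of myosin phosphatase (distance 0.0662, 29.7 ± 2.89 to 72.0 ± 5.19 TPM), *Atxn1l* (distance 0.0957) and *Tbce*, a tubulin-folding cofactor (distance 0.110). For *Optn* they were *Idh2*, the mitochondrial isocitrate dehydrogenase (distance 0.0609, 1631 ± 96.6 to 1002 ± 93.3 TPM), *Akap6*, an anchoring protein of the cardiomyocyte nuclear envelope (distance 0.140), and *Gm49708* (distance 0.140). Over 6 libraries in 2 groups such nearness is a description only.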

How the data were processed

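Left ventricular RNA was compared as 3 control against 3 overexpression libraries, grouped by the genotype label. The authors deposited TPM by gene symbol, per the file headers. The submitters' processing notes list, with no roles, STAR-Fusion 1.11.0, GATK 4.2.6.1, edgeR 3.40.2, featureCounts 2.0.3 and the build mm8. Aligner, annotation and strand use in counting: not given in the sources used here, so that reads of overlapping genes cannot be assigned with certainty. TPM columns were matched to samples by the number in the title, and replicate numbers follow deposit order and pair nothing. The labels name no batch and do not say that the libraries are separate animals, so the p-values speak of the spread among libraries, which may be technical.

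Groups were compared on log2(TPM + 1) with limma 3.58.1 (R 4.3.3, variance trend, two-sided) for genes averaging 1 TPM or more. The p-values were adjusted over all 12404 genes by the Benjamini-Hochberg method, with a threshold of 0.05, and the script was tested on simulated data. Rescaling divided a library by the median, over genes, of its ratio to the geometric mean. Exact two-sided permutation tests were used for single values and ratios. Alternatives were pseudocounts of 0.1 and 5, no filter or one of 5 TPM, removal of mitochondrially encoded genes, median-of-ratios and quantile scaling, limma without a trend or with robust moderation, and each library left out, also with rescaling. Alternatives for *Rbm20* were chosen after seeing the data. Depth was estimated from the steps between low TPM values and exon lengths of GENCODE M21 (30519 of 31273 symbols matched), which also gave the GRCm38 positions, used in no test. The 9 genes and all lists were chosen with earlier results of these data known. Besides the 9 genes and *Rbm20*, up to 4 genes per list were named, those with the 2 largest positive and the 2 largest negative rescaled differences, and 3 genes nearest to the highest and the lowest receptor. For 1 gene named by this rule no value is reported. *Esr1*, *Ddx3y*, *Xist*, *Car9* and *Fundc2* with its ratio are named outside this rule. So are the genes whose exons overlap those of a receptor gene, and the partners given under Other observations. Promoter windows are from RefSeq on GRCm38.p6. Python 3.11.15, numpy 2.4.6, pandas 2.3.3, scipy 1.17.1 and matplotlib 3.10.9 were used for summaries and figures.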

Additional observations from a re-analysis of the deposited data

How the results depend on the processing

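*Sqstm1*, *Tax1bp1*, *Optn* and *Pink1* kept their direction and their call in 21 of 21 alternatives each, and *Fundc1* kept its direction in all 21 and lost its call in 4. Members called higher numbered 4 in deposited TPM and 2 under median of ratios, without mitochondrially encoded genes and under quantile normalization. Members called lower numbered 3 in deposited TPM, 5 under median of ratios, 4 without mitochondrially encoded genes and 5 under quantile normalization. In the same order, partner genes called higher went from 43 to 13, 30 and 16, and those called lower from 9 to 25, 15 and 22. All genes called higher went from 7316 to 2756, 5382 and 2963, and those called lower from 1127 to 2974, 1796 and 2816, again in that order. With 1 library left out, with or without rescaling, members called higher ranged from 2 to 4 and lower from 2 to 6, partner genes higher from 8 to 42 and lower from 6 to 25, and all genes higher from 2045 to 7212 and lower from 950 to 2839. *Nbr1* turned to -0.20 under median of ratios and -0.0676 under quantile normalization (with a library left out, -0.29 under rescaling to 0.49 in TPM). *Bnip3* turned to -0.21 and -0.0241 (-0.31 to 0.52), and its adjusted p was 0.0712 without a filter and 0.0584 without a trend. *Bnip3l* turned to -0.54 and -0.43, and to -0.21 without mitochondrially encoded genes (-0.58 to 0.17 with a library left out, and -0.00197 in TPM without overexpression replicate 2). *Calcoco1* turned to 0.0198 without overexpression replicate 1, and its range with a library left out was -0.80 to 0.0198. The 4 ratios kept their direction throughout, and *Rbm20* stayed between 2.04 and 3.46. No paired analysis was possible because the groups share no number in the titles. With 3 libraries a group, outlying single values were not tested, and an exact test cannot go below 0.1.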

Other observations

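Some partners of the receptors fall outside the rule for named genes and were chosen after their values were seen. *Tbk1*, the kinase that phosphorylates OPTN and p62, was at 14.1, 14.3 and 11.9 TPM in control and at 28.3, 40.8 and 28.5 TPM in overexpression libraries, so it rose while *Optn* fell (log2 difference 1.20 in TPM and 0.61 after rescaling, limma adjusted p = 0.000307 and 0.00611). *Nfe2l2*, which encodes NRF2, rose from 61.5 ± 5.74 to 134 ± 31.5 TPM (SD, n = 3 each), with a rescaled log2 difference of 0.47 (limma adjusted p = 0.0185). *Hmox1*, an NRF2 target for heme breakdown, had 108, 58.5 and 34.1 TPM in overexpression replicates 1 to 3 against 15 to 21.9 TPM in control. The rescaled log2 difference of *Hmox1* was 0.98, with a limma adjusted p of 0.0498, only just under the threshold. *Keap1*, the inhibitor that p62 holds, was at 15.4 ± 2.30 and 21.9 ± 2.98 TPM and was called higher in TPM (log2 difference 0.48, adjusted p = 0.0191) but not after rescaling (-0.11, adjusted p = 0.516). *Vdac1*, a channel of the outer mitochondrial membrane, fell from 874 ± 25.6 to 647 ± 53.6 TPM. *Map1lc3a*, the most abundant ATG8-family transcript in these libraries, was at 459 ± 14.9 and 477 ± 31.8 TPM, which did not pass the test in TPM (adjusted p = 0.597) and was called lower after rescaling (log2 difference -0.57, adjusted p = 0.00293).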
